A study of Homo sapiens with 12 samples.

Results

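The genes described here are 6 ligands and 3 receptors of the epidermal growth factor (EGF) family, chosen by symbol whatever their values: the ligands AREG, EREG, HBEGF, TGFA, BTC and EPGN, and the receptors EGFR, ERBB2 and ERBB3. They are 9 of the 60651 genes in the count table, and all 9 passed the filter on low counts in every fit. RNA was sequenced from 2 established human cholangiocarcinoma lines, both labelled WT. EGI-1 cells, grown in DMEM, received DMSO as vehicle, 0.5 µM decitabine, 200 nM talazoparib or both drugs at those doses. HUCCT1 cells, grown in RPMI1640, received DMSO or 1 µM decitabine. All cells were collected at 72 h, and each of the 6 arms holds 2 libraries. Decitabine inhibits DNA methyltransferases and talazoparib inhibits PARP enzymes. The names of the talazoparib libraries carry another number than the labelled dose, so the dose is given as labelled. Nothing says that the 2 libraries of an arm came from separate cultures, so every p-value measures the spread between these libraries, which may be technical.

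EGF family ligands are made as membrane-anchored precursors that proteases of the ADAM family cut to release the soluble factor. All 6 ligands bind EGFR, and HBEGF, BTC and EREG also bind ERBB4. ERBB2 has no known soluble ligand and serves as a partner in dimers, whereas ERBB3 binds neuregulins and has little kinase activity of its own. Bound receptors signal through RAS and ERK and through PI3K and AKT, and ERK signalling in turn raises the transcription of several of these ligands in epithelial cells. Bile duct cells and the tumours that arise from them are known to express EGFR and its ligands.

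EGI-1 libraries held 23139065 to 33181930 counts and HUCCT1 libraries 32519985 to 34965627. Of 9 markers of bile duct and other epithelial cells, 8 had over 10 counts in every library, and the ninth, SPP1, did not. The summed level of the epithelial list lay between 9226 and 10262 CPM (counts scaled by the library total alone, without TMM factors) in EGI-1. In HUCCT1 vehicle it was 13851 and 15045 CPM, and under decitabine 9023 and 10156 CPM. Summed fibroblast markers in HUCCT1 were 24.2 and 26.3 CPM in vehicle and 152 and 177 CPM under decitabine, almost all of it COL1A1. Summed leukocyte and endothelial markers there were 4.78 and 3.75 CPM in vehicle and 16.3 and 17.9 CPM under decitabine, and summed hepatocyte markers were 73.4 and 50.02 CPM against 102 and 91.0 CPM. Of the epithelial markers 5 were lower and 1 higher of 8 tested there, and 3 of 3 fibroblast and 3 of 3 leukocyte and endothelial markers were higher. The shifts in HUCCT1 moved with every decitabine result of that line given here, and their part in those results was not tested.

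In EGI-1 some markers of other cells were higher in the combination, and 1 library stood apart. Summed fibroblast markers were 32.1 and 30.5 CPM in vehicle and 52.6 and 44.7 CPM in the combination. Of the 5 listed only 1 could be tested, COL1A1, a collagen gene, which was called higher (log2 0.64, edgeR adjusted p = 0.000326). Summed leukocyte and endothelial markers were 6.31 and 6.62 CPM in vehicle and 11.8 and 28.9 CPM in the combination. There VWF, an endothelial gene, was called higher (log2 1.64, adjusted p = 1.71e-05). PECAM1, the other endothelial gene and the only other gene of this list tested, was not called (log2 0.03, adjusted p = 0.955). Combination replicate 2 alone held 381 counts of PTPRC, the leukocyte antigen CD45, and 148 of CD3E, a T cell gene, against 1 to 7 and 0 to 4 counts in the other EGI-1 libraries. CD68, a macrophage gene, had 7 counts in that library, within the 0 to 10 of the others. Without replicate 2 COL1A1 (0.75, adjusted p = 0.000684) and VWF (1.82, adjusted p = 5.64e-05) were still called. Of 8 epithelial markers tested 3 were higher and 0 lower in the combination, and hepatocyte markers lay between 22.9 and 29.2 CPM over the EGI-1 libraries. The part of these shifts in the combination results was not tested, and its comparison with vehicle is given below with and without replicate 2.

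Of the ligand genes, 4 lie together on chromosome 4 (GRCh38, GENCODE 44), in a stretch of 486.1 kb. EPGN lies at chr4:74308470-74316789 on the plus strand, EREG at chr4:74365145-74388749 on the plus strand, AREG at chr4:74445136-74455005 on the plus strand and BTC at chr4:74744759-74794523 on the minus strand. TGFA lies apart at chr2:70447284-70554193 (minus strand) and HBEGF at chr5:140332843-140346603 (minus strand). The receptor genes are EGFR at chr7:55019017-55211628, ERBB2 at chr17:39687914-39730426 and ERBB3 at chr12:56076799-56103505, all on the plus strand. Where the annotation overlaps other genes, the shared share of a member's exon bases was 5.53% for ERBB2 with MIEN1, 1.40% for ERBB2 with PGAP3 and 1.17% for EGFR with EGFR-AS1, all on the opposite strand, and 0.265% for ERBB3 with ENSG00000257411 on the same strand. Whether the counting used the strand is not stated, so a small part of those counts could belong to the overlapping gene.

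The promoters of 5 ligands are shown because decitabine blocks the upkeep of methylation at CpG sites, although methylation itself was not measured in these libraries. Each window runs from 250 bases before to 50 bases after the transcription start in RefSeq (GRCh38.p14), is written 5′ to 3′ on the gene's own strand, and has each CpG in capitals. The windows are chr4:74444886-74445185 for AREG, chr4:74364895-74365194 for EREG, chr5:140346554-140346853 for HBEGF, chr2:70553777-70554076 for TGFA and chr4:74308220-74308519 for EPGN.
AREG: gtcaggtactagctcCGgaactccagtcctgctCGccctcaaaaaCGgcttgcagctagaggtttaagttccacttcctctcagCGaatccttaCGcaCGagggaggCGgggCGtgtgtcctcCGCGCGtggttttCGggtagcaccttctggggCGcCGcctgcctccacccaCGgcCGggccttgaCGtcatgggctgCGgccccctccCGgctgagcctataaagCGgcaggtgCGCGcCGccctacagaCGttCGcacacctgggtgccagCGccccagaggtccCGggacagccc
EREG: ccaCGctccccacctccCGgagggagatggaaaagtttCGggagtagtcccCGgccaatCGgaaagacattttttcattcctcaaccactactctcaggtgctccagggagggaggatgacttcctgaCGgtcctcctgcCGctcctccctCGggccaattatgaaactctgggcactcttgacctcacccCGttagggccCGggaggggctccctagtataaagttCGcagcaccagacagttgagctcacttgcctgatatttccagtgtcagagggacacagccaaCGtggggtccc
HBEGF: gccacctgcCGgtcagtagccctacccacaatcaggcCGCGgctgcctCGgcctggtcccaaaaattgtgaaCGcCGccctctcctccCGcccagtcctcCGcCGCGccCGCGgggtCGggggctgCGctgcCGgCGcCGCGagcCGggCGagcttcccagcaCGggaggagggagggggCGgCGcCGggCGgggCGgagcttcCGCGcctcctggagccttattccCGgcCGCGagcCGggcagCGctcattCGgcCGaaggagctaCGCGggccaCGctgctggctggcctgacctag
TGFA: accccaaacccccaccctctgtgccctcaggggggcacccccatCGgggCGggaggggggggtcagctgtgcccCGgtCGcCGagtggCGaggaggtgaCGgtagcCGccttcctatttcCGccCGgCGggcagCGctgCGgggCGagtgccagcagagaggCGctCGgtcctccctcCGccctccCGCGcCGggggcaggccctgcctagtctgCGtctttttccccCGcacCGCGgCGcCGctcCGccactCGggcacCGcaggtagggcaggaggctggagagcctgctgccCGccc
EPGN: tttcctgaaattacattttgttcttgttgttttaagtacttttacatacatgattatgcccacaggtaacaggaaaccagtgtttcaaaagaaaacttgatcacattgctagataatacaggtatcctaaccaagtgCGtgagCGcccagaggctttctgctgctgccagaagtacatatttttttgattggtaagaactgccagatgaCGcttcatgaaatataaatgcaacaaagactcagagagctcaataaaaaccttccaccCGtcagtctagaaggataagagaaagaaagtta

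Over 35116 RefSeq promoter windows of this length the median number of CpG sites was 14, with quartiles of 4 and 28. HBEGF held 38, more than 90.1% of windows. TGFA held 30 and AREG held 27 CpG sites, while EREG held 12 and EPGN held 4, so the ligands spanned CpG-rich and CpG-poor starts. BTC also held 12 CpG sites, EGFR 33 and ERBB2 24. For TGFA and EGFR the table lists a further window with 22 and 1 CpG sites, and ERBB3 was not matched there.

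The windows were searched on both strands for 4 short motifs. The cyclic AMP response element TGACGTCA occurred once, in AREG, starting 65 bases before the start site, and 1.85% of all windows held it. TATAAA was found in AREG, EREG and EPGN and in the further window of EGFR, against 11.5% of all windows. The Sp1 letters GGGCGG, which 45.0% of all windows held, occurred at 5 places in the HBEGF window. They were also found in AREG, TGFA, BTC and the first window of EGFR. TGANTCA, a pattern wider than the AP-1 motif TGA(C/G)TCA, was found in ERBB2 and in the further window of EGFR, against 7.71% of windows. The letters were TGATTCA in ERBB2, which is not that motif, and TGAGTCA and TGACTCA in EGFR. A match is a run of letters and does not show binding.

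Without drug, both lines expressed most of the family, with EGFR as the leading receptor in each and EREG as the leading ligand in EGI-1 against AREG in HUCCT1. Levels between genes are given per transcript length, as TPM over the longest annotated transcript (mean ± SD, n = 2). In EGI-1 vehicle cells the order was EREG at 329 ± 0.85 TPM, AREG at 179 ± 4.9, EGFR at 139 ± 1.6, TGFA at 133 ± 1.2, ERBB2 at 125 ± 1.5, HBEGF at 84.9 ± 5.2, ERBB3 at 38.9 ± 0.96, BTC at 8.42 ± 0.15 and EPGN at 1.66 ± 0.15 TPM. No neighbours in this order overlapped between libraries. The order depended on the length used, since with exon union lengths TGFA was at 147, EGFR at 114, HBEGF at 88.4 and ERBB2 at 78.7 TPM.

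In HUCCT1 vehicle cells EGFR led the receptors and AREG the ligands. EGFR was at 541 ± 1.4 TPM, AREG at 505 ± 24, EREG at 263 ± 45, ERBB2 at 118 ± 11, HBEGF at 94.6 ± 6.8, TGFA at 80.4 ± 1.8, ERBB3 at 33.7 ± 0.62, BTC at 5.76 ± 0.84 and EPGN at 1.84 ± 0.37 TPM (mean ± SD, n = 2), and here too no neighbours overlapped. With exon union lengths AREG, at 505 TPM, stood above EGFR, at 447 TPM, and ERBB2, at 75.2 TPM, stood below TGFA, at 89.5 TPM. EGFR made up 45.8% and 46.1% of the summed receptor TPM in the EGI-1 vehicle libraries and 78.9% and 77.2% in those of HUCCT1. EREG made up 44.7% of the summed ligand TPM in both EGI-1 vehicle libraries, and AREG 50.7% and 55.7% in HUCCT1.

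**Figure D1:**
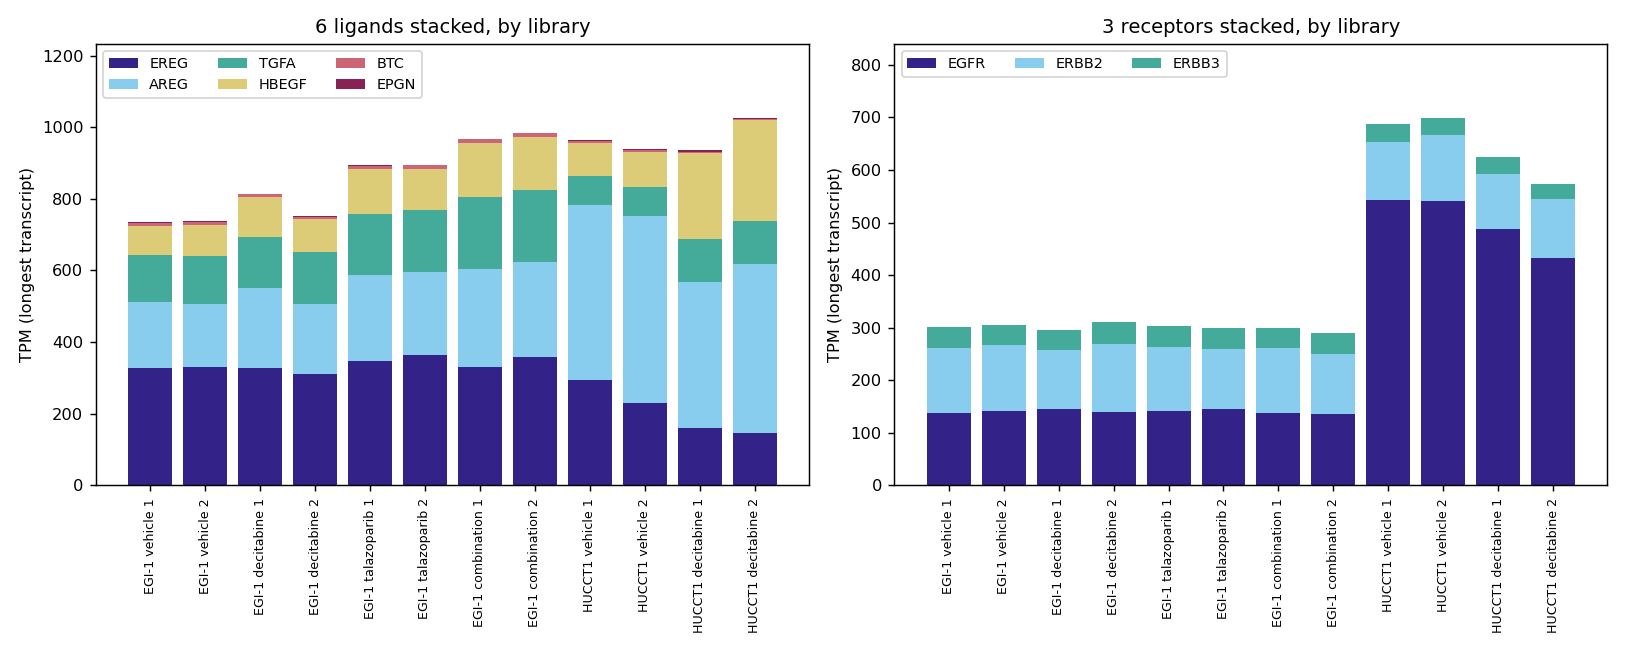
Stacked TPM (longest transcript) of the 6 ligands (left) and the 3 receptors (right), with 1 bar for each of the 12 libraries. The ligand sum of EGI-1 climbs from 735 and 738 TPM in vehicle to 968 and 984 TPM in the combination, while its receptor sum stays between 290 and 310 TPM, and HUCCT1 has more EGFR than EGI-1 in every library.

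The vehicle arms of the lines were compared in a fit of all 12 libraries. EGFR was 4.51-fold higher in HUCCT1 (log2 fold change 2.17, SE 0.069, edgeR quasi-likelihood adjusted p = 1.21e-16) and AREG 3.28-fold higher (1.71, SE 0.095, adjusted p = 1.28e-12). HBEGF was higher by 0.37 on the log2 scale (SE 0.11, adjusted p = 0.0047) and TGFA lower, at -0.52 (SE 0.068, adjusted p = 1.31e-06). These 4 were the members called, 3 higher and 1 lower of 9, where 28.5% of all 25096 genes tested were called higher and 27.3% lower. The HBEGF call was lost without HUCCT1 vehicle replicate 2 (adjusted p = 0.0945) and without EGI-1 vehicle replicate 1 (adjusted p = 0.0738), whereas without HUCCT1 vehicle replicate 1 EREG, BTC and ERBB2 joined the calls (7 of 9). EREG (-0.12), BTC (-0.34), EPGN (0.35), ERBB2 (0.14) and ERBB3 (0.01) were not called. Line, medium and a code in the library names differ together, so they cannot be told apart. What the code stands for is not stated.

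In EGI-1, the combination of decitabine and talazoparib raised 3 of the 6 ligands and no receptor. HBEGF, a heparin-binding ligand, stood at 65.9 and 70.0 CPM (for the members scaled with TMM factors within a line) with vehicle, 90.4 and 73.4 under decitabine, 98.7 and 91.1 under talazoparib and 118 and 116 CPM in the combination. The combination libraries lay above all other EGI-1 libraries, and those of vehicle lay below all others. The combination was 1.72-fold above vehicle (log2 fold change 0.78, SE 0.084, edgeR adjusted p = 3.93e-06). In bulk RNA, as here, more cells that express a gene and more of its RNA per cell cannot be told apart.

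TGFA, the ligand that tumour cells often make for themselves, was at 188 and 185 CPM in vehicle, 201 and 205 under decitabine, 236 and 241 under talazoparib and 272 and 278 CPM in the combination. The 4 arms did not overlap and stood in that order. Against vehicle the combination was 1.48-fold higher (log2 0.56, SE 0.055, adjusted p = 1.38e-06).

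AREG, a ligand that binds EGFR alone, was at 77.4 and 72.6 CPM in vehicle, 95.1 and 81.8 under decitabine, 99.7 and 96.4 under talazoparib and 112 and 109 CPM in the combination. Again the 4 arms did not overlap, with vehicle lowest and the combination highest, and the rise over vehicle was also 1.48-fold (log2 0.56, SE 0.074, adjusted p = 3.61e-05). Over the 8 EGI-1 libraries log2 CPM of AREG and HBEGF ran together (Pearson r 0.978), as did HBEGF and TGFA (0.935) and AREG and TGFA (0.925), a description over libraries that share arms.

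EREG, the most abundant ligand in EGI-1 vehicle cells, showed no such rise. Its levels were 522 and 510 CPM in vehicle, 519 and 492 under decitabine, 536 and 566 under talazoparib and 503 and 552 CPM in the combination. The combination overlapped vehicle, with a log2 difference of 0.03 (95% interval -0.09 to 0.15, adjusted p = 0.771). As a share of the summed ligand TPM, EREG went from 44.7% in both vehicle libraries to 34.03% and 36.4% in the combination.

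The rare ligands BTC and EPGN missed the threshold narrowly, in opposite directions. BTC was at 7.59 and 7.58 CPM in vehicle, 7.34 and 6.18 under decitabine, 8.39 and 8.44 under talazoparib and 9.52 and 10.2 CPM in the combination. Its log2 difference between combination and vehicle was 0.38 (95% interval 0.10 to 0.66, adjusted p = 0.0521). EPGN was at 1.63 and 1.40 CPM in vehicle, 1.45 and 1.74 under decitabine, 1.42 and 1.33 under talazoparib and 1.03 and 0.59 CPM in the combination. With 17 to 47 counts in the EGI-1 libraries its interval was wide, and the log2 difference was -0.93 (95% interval -1.61 to -0.26, adjusted p = 0.0507).

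Receptor transcripts stayed near vehicle in EGI-1 in all arms. EGFR was at 470 and 466 CPM in vehicle, 492 and 472 under decitabine, 471 and 484 under talazoparib and 453 and 449 CPM in the combination. ERBB2 lay between 189 and 219 CPM and ERBB3 between 80.3 and 86.6 CPM over the 8 libraries. The log2 differences of the combination from vehicle were -0.05 for EGFR (95% interval -0.16 to 0.05), -0.11 for ERBB2 (-0.25 to 0.03) and -0.02 for ERBB3 (-0.16 to 0.12), and none passed the test. By these intervals a rise of over 0.12 or a fall of over 0.25 on the log2 scale lay outside the range for all 3 receptors.

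**Figure D2:**
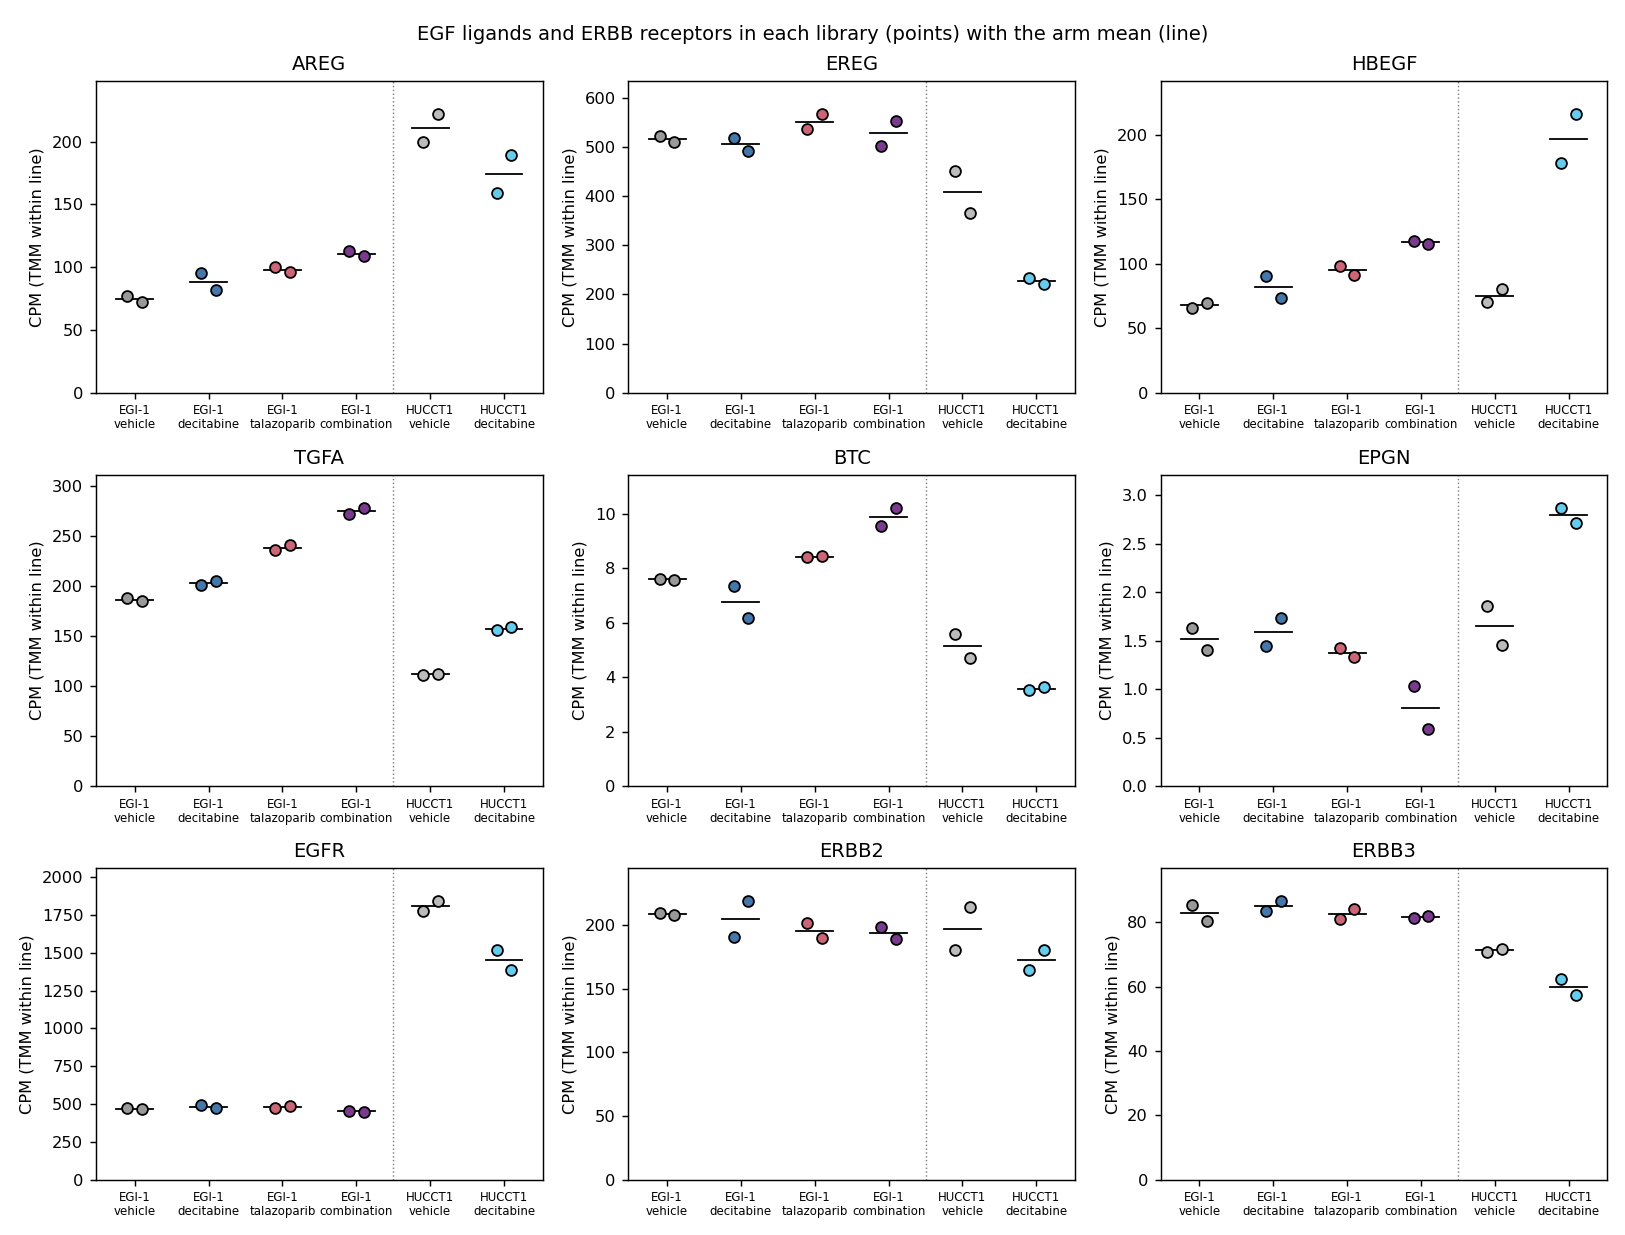
CPM (vertical axes, linear from 0, TMM-scaled within a line) of the 9 genes in each of the 12 libraries. Points are libraries, short lines are the means of 2, and the dotted line divides the cell lines. AREG, HBEGF and TGFA step upward over the 4 EGI-1 arms, EREG and the receptors do not, and in HUCCT1 HBEGF goes up to 178 and 216 CPM under decitabine while EREG goes down to 232 and 221 CPM.

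By count, 3 of 9 members were called higher and 0 lower in the combination against vehicle, where 11.1% of all 22406 genes tested were called higher and 7.61% lower (2489 and 1705 genes, or 2177 and 2244 with upper-quartile in place of TMM factors). The median log2 fold change was 0.03 over the 9 members and -0.02 over all genes. The calls of AREG, HBEGF and TGFA held in 11 of 11 alternatives, with the largest adjusted p at 0.00383, 0.00065 and 0.000361. Without combination replicate 2, the library with leukocyte transcripts, AREG was higher by 0.59 (adjusted p = 0.000463), HBEGF by 0.80 (adjusted p = 9.77e-05) and TGFA by 0.55 (adjusted p = 7.33e-05), 3 of 9 members were called, and 2523 genes were called in all against 4194. EPGN then stood at -0.56 (adjusted p = 0.372) and BTC at 0.33 (adjusted p = 0.235). With only the 4 libraries of these arms BTC and EPGN were also called (5 of 9), and without combination replicate 1 EPGN was called (log2 -1.36, adjusted p = 0.0279).

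The same 3 ligands were called under talazoparib alone. Against vehicle HBEGF was 1.40-fold higher (log2 0.48, SE 0.084, adjusted p = 0.00217), AREG 1.31-fold (0.39, SE 0.074, adjusted p = 0.0045) and TGFA 1.28-fold (0.36, SE 0.055, adjusted p = 0.000799). These are 3 of 9 members higher and 0 lower, where 2.83% of all genes were called higher and 1.29% lower, with a member median of 0.09 and a median over all genes of -0.003. AREG lost its call without vehicle replicate 1 (adjusted p = 0.0543), vehicle replicate 2 (adjusted p = 0.155) or talazoparib replicate 1 (adjusted p = 0.0518), and HBEGF without vehicle replicate 1 (adjusted p = 0.091), which left 1 member called. TGFA was called in 11 of 11 alternatives.

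Under decitabine alone no member was called in EGI-1. By edgeR 0 of 9 passed the adjusted threshold in either direction, 3 had an unadjusted p under 0.05 and DESeq2 called 0, where 0.518% of all genes were called higher and 0.0268% lower. The 3 were AREG (log2 0.24, SE 0.074, adjusted p = 0.223), HBEGF (0.27, SE 0.084, adjusted p = 0.224) and TGFA (0.12, SE 0.055, adjusted p = 0.511). Both decitabine libraries lay above both vehicle libraries for each of these 3. Of the 9 members 4 lay above in this way and 1 below, and the share over all genes was not counted. With 2 against 2 libraries such separation is common by chance. Without decitabine replicate 2, AREG (0.34, adjusted p = 0.0125) and HBEGF (0.41, adjusted p = 0.00299) were called, and without a filter on low counts HBEGF was called (adjusted p = 0.029).

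Adding talazoparib to decitabine was compared within EGI-1 by setting the combination against decitabine. TGFA was higher by 0.44 (SE 0.055, adjusted p = 5.87e-05), HBEGF by 0.51 (SE 0.083, adjusted p = 0.000791), AREG by 0.32 (SE 0.074, adjusted p = 0.0105) and BTC by 0.54 (SE 0.13, adjusted p = 0.0164) on the log2 scale. This made 4 of 9 members higher and 0 lower, where 4.42% of all genes were called higher and 3.26% lower. AREG lost its call without combination replicate 1 (adjusted p = 0.0672), and BTC lost it without decitabine replicate 2 (adjusted p = 0.0772), without combination replicate 2 (adjusted p = 0.122) and with only these 4 libraries (adjusted p = 0.0583). EPGN was called lower without combination replicate 1 (log2 -1.43, adjusted p = 0.0436).

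Adding decitabine to talazoparib gave smaller differences. In the combination against talazoparib 0 of 9 members were called by edgeR, 4 had an unadjusted p under 0.05 and DESeq2 called 2, where 1.36% of all genes were called higher and 0.567% lower. HBEGF differed by 0.30 (SE 0.083, adjusted p = 0.0812), TGFA by 0.21 (SE 0.055, adjusted p = 0.0673), AREG by 0.18 (SE 0.073, adjusted p = 0.296) and EPGN by -0.79 (SE 0.32, adjusted p = 0.287). DESeq2 called HBEGF (adjusted p = 0.0372) and TGFA (adjusted p = 0.0242), and HBEGF was also called without a filter on low counts (adjusted p = 0.00463) and with only these 4 libraries (adjusted p = 0.00942).

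The combination did not differ detectably from the sum of the single-drug effects on the log2 scale. For this departure edgeR called 0 of 9 members, 0 had an unadjusted p under 0.05 and DESeq2 called 0, where 0.00893% of all genes were called higher and 0.152% lower. The departure was -0.06 for AREG (95% interval -0.28 to 0.16), 0.03 for HBEGF (-0.22 to 0.28) and 0.08 for TGFA (-0.08 to 0.25). Larger values for BTC (0.39) and EPGN (-0.86) came with wide intervals, which for EPGN ran from -1.77 to 0.06. The 5 EGI-1 comparisons and this departure share libraries and are not independent of each other.

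**Figure D3:**
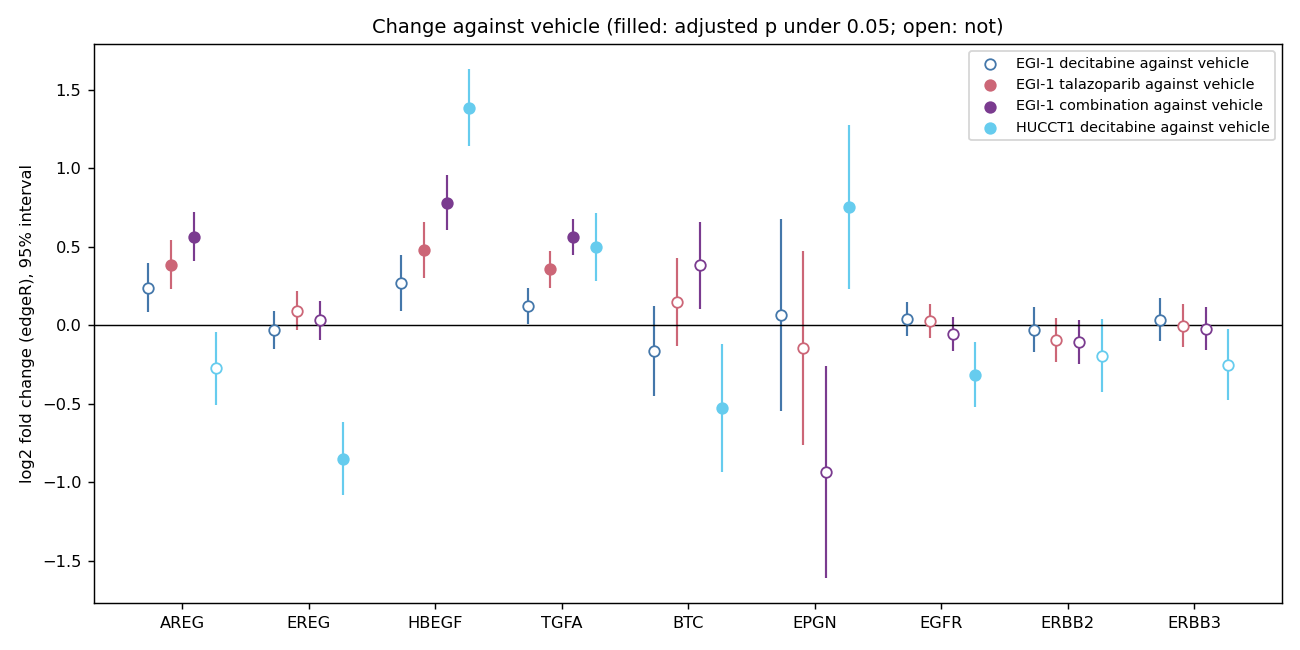
Log2 fold change against vehicle (vertical axis, edgeR) of each member for 3 EGI-1 arms and HUCCT1 decitabine, with 95% intervals and filled points where the adjusted p was under 0.05. HBEGF and TGFA are above 0 in every comparison, AREG and EREG lie lower in HUCCT1 than in EGI-1, and the receptors of EGI-1 lie within 0.11 of 0.

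In HUCCT1, decitabine alone moved 6 of the 9 genes, 3 upward and 3 downward. HBEGF was at 70.1 and 80.6 CPM in vehicle and 178 and 216 CPM under decitabine, a 2.61-fold rise (log2 1.39, SE 0.12, edgeR adjusted p = 8.53e-10). TGFA was at 111 and 112 CPM in vehicle and 156 and 159 CPM under decitabine, 1.41-fold higher (log2 0.50, SE 0.11, adjusted p = 0.000573). Neither gene overlapped between the arms, and both calls held in 9 of 9 alternatives.

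EREG fell in HUCCT1. It was at 450 and 366 CPM in vehicle and 232 and 221 CPM under decitabine, 0.555 of the vehicle level (log2 -0.85, SE 0.11, adjusted p = 1.59e-06), with no overlap and a call in 9 of 9 alternatives. The promoter windows counted above held 38 CpG sites for HBEGF, 30 for TGFA, 27 for AREG, 12 for EREG and BTC and 4 for EPGN. Whether CpG number goes with the response was not tested.

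The remaining calls were less firm. EPGN was at 1.86 and 1.45 CPM in vehicle (62 and 49 counts) and at 2.87 and 2.72 CPM under decitabine (102 and 90 counts), a log2 difference of 0.75 (SE 0.25, adjusted p = 0.0233). It was not called by DESeq2 (adjusted p = 0.0987), without decitabine replicate 1 (adjusted p = 0.0795) or without vehicle replicate 2 (adjusted p = 0.186). BTC was at 5.58 and 4.72 CPM in vehicle and 3.52 and 3.62 CPM under decitabine, a log2 difference of -0.53 (SE 0.20, adjusted p = 0.0424). It was called in 3 of 9 alternatives, and the adjusted p was 0.249 without vehicle replicate 1, 0.143 without decitabine replicate 1 and 0.11 without decitabine replicate 2.

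EGFR, the receptor of all 6 ligands, was at 1778 and 1841 CPM in vehicle and 1522 and 1390 CPM under decitabine. The arms did not overlap and the level was 0.805 of vehicle (log2 -0.31, SE 0.10, adjusted p = 0.0182), a call lost without decitabine replicate 1 (adjusted p = 0.0606), vehicle replicate 2 (adjusted p = 0.0802) or decitabine replicate 2 (adjusted p = 0.266). AREG was at 200 and 222 CPM in vehicle and 159 and 189 CPM under decitabine, and was not called (log2 -0.27, SE 0.11, adjusted p = 0.0627), though it was without vehicle replicate 1 (adjusted p = 0.0398) or decitabine replicate 2 (adjusted p = 0.0389). ERBB2 was at 181 and 214 against 165 and 181 CPM (log2 -0.19, adjusted p = 0.199) and ERBB3 at 70.9 and 71.7 against 62.5 and 57.3 CPM (log2 -0.25, adjusted p = 0.0813). All 3 receptors had lower means under decitabine, and only EGFR was called.

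The 3 higher and 3 lower of 9 stand beside 19.6% of 22479 genes called higher and 13.9% lower in HUCCT1, so a large part of the transcriptome moved with them. The member median was -0.25 and that of all genes 0.002 on the log2 scale. Without decitabine replicate 1, 3 members were called. Summed ligand TPM was 963 and 938 in vehicle and 935 and 1027 under decitabine, which overlapped. Within that sum HBEGF took 9.33% and 10.6% in vehicle and 25.6% and 27.5% under decitabine, while EREG took 30.6% and 24.6% in vehicle and 17.1% and 14.3% under decitabine. Summed receptor TPM was 687 and 700 in vehicle and 624 and 573 under decitabine.

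Whether decitabine acted differently in the lines was tested directly, with an interaction term over all 12 libraries and 25096 genes. Of the 9 members 2 had a higher log2 response in HUCCT1 and 3 a lower one, where 8.74% of all genes were called higher and 7.2% lower. HBEGF responded more in HUCCT1 by 1.13 (SE 0.15, adjusted p = 1.25e-05) and EREG less by -0.80 (SE 0.12, adjusted p = 4.77e-05), and both were called in 13 of 13 alternatives. TGFA differed by 0.39 (SE 0.096, adjusted p = 0.00699), AREG by -0.50 (SE 0.13, adjusted p = 0.0114) and EGFR by -0.34 (SE 0.094, adjusted p = 0.0162). The decitabine dose was 0.5 µM in EGI-1 and 1 µM in HUCCT1, so dose and line cannot be told apart.

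The calls of these last 3 differences were less firm, though their direction held. With 1 library left out at a time, the log2 difference lay between 0.37 and 0.41 for TGFA. It lay between -0.64 and -0.38 for AREG and between -0.40 and -0.29 for EGFR. AREG lost its call without HUCCT1 decitabine replicate 1 (adjusted p = 0.0589), EGI-1 decitabine replicate 1 (adjusted p = 0.0634) or EGI-1 vehicle replicate 2 (adjusted p = 0.0688). EGFR lost it without HUCCT1 decitabine replicate 2 (adjusted p = 0.0768), EGI-1 vehicle replicate 1 (adjusted p = 0.0584), EGI-1 decitabine replicate 1 (adjusted p = 0.0532) or EGI-1 vehicle replicate 2 (adjusted p = 0.0763). TGFA lost it without EGI-1 vehicle replicate 1 (adjusted p = 0.063) and without a filter on low counts (adjusted p = 0.0587). BTC (-0.35), EPGN (0.70), ERBB2 (-0.15) and ERBB3 (-0.27) were not called.

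In HUCCT1 the changes of the 4 ligands on chromosome 4 stood beside larger ones of their neighbours, a difference that was not itself tested. Within 500 kb of the cluster lie 10 other protein-coding genes, among them the CXC chemokine genes whose products attract neutrophils. Of the 9 neighbours tested, 8 were higher under decitabine and 0 lower, where 19.6% of all genes were called higher and 13.9% lower. The median log2 fold change of the 9 was 4.44. PPBP had 2 and 3 counts in vehicle and 55 and 45 under decitabine, and PARM1 7 and 3 against 26 and 27. Both passed the filter on low counts through the decitabine arm, which fixed their direction. PF4V1, with 2 and 0 counts in vehicle and 7 and 7 under decitabine, was not tested. CXCL1 was at 12.9 and 15.3 CPM (for the neighbours without TMM factors) in vehicle and 932 and 1169 CPM under decitabine (log2 6.15, adjusted p = 1.98e-20), and CXCL2, the chemokine gene nearest to EPGN, was at 8.97 and 12.6 against 214 and 279 CPM (log2 4.44, adjusted p = 9.61e-13). MTHFD2L, the gene just before EPGN, was not called (log2 0.39, adjusted p = 0.0617). Beside these, EPGN was higher by 0.75, EREG lower by 0.85, AREG at -0.27 and BTC lower by 0.53 on the same scale, as given above.

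In the EGI-1 combination 6 neighbours could be tested, and 3 were higher and 1 lower, where 11.1% of all genes were called higher and 7.61% lower. CXCL1 was at 75.6 and 76.6 CPM in vehicle and 142 and 121 CPM in the combination (log2 0.79, adjusted p = 9.09e-07), PARM1 was higher by 0.52 (adjusted p = 0.029) and CXCL2 was lower (log2 -0.30, adjusted p = 0.0334). CXCL5 was also called higher, from 0.139 and 0.0765 CPM (4 and 2 counts) to 0.344 and 1.37 CPM (8 and 40 counts). The 40 counts were in combination replicate 2, the library with leukocyte transcripts. Without combination replicate 2, CXCL1 alone was called (log2 0.90, adjusted p = 2.34e-06), and the adjusted p was 0.0938 for PARM1, 0.231 for CXCL2 and 0.325 for CXCL5.

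**Figure D4:**
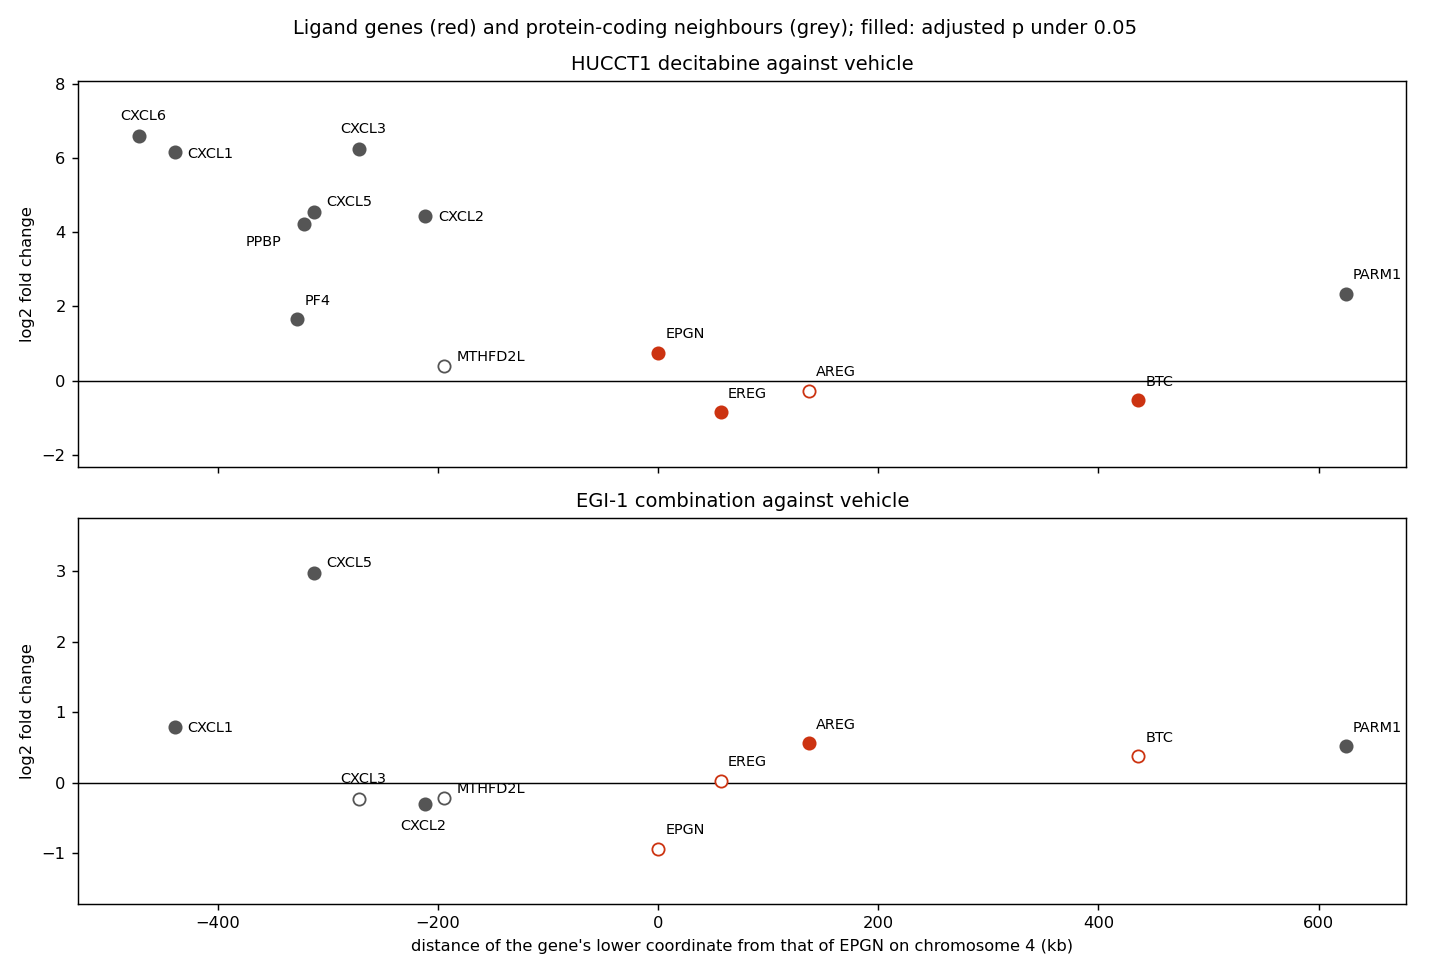
Log2 fold change (vertical axes) of the 4 ligand genes of chromosome 4 (red) and their tested protein-coding neighbours (grey) by distance in kb from EPGN, for HUCCT1 decitabine (top) and the EGI-1 combination (bottom). Filled points had an adjusted p under 0.05, and in HUCCT1 most chemokine genes lie far above the ligands, with CXCL1 at 6.15 and EREG at -0.85. PPBP and PARM1 in HUCCT1 and CXCL5 in EGI-1 had only a few counts in vehicle.

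Among the other ligands and the remaining receptor of the family, NRG1, a neuregulin that binds ERBB3 and ERBB4, fell in EGI-1. It was at 70.9 and 79.4 CPM (for this list without TMM factors) in vehicle, 58.4 and 70.1 under decitabine, 50.1 and 50.3 under talazoparib and 45.4 and 38.8 CPM in the combination. Both talazoparib arms lay below vehicle and decitabine, with a log2 change of -0.57 for talazoparib (SE 0.090, adjusted p = 0.000906) and -0.83 for the combination (SE 0.091, adjusted p = 5.24e-06), or -0.72 without combination replicate 2 (adjusted p = 0.000442). It was the only called gene of the 3 that could be tested on this list of 6. EGF itself lay between 1.38 and 3.01 CPM in EGI-1 and was not called (log2 0.60, adjusted p = 0.129). ERBB4 reached at most 0.116 CPM in EGI-1, and NRG3 had no count there. In HUCCT1 0 of 5 tested genes of this list were called by edgeR, NRG1 among them (log2 -0.27, adjusted p = 0.0981).

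Of the 7 genes tested that release and carry the ligands, 2 were called in the EGI-1 combination and 2 in HUCCT1. Of all genes 11.1% were called higher and 7.61% lower in the EGI-1 combination, and 19.6% higher and 13.9% lower in HUCCT1. In the EGI-1 combination FRMD8, which stabilises the iRhom and ADAM17 complex, was higher (log2 0.55, adjusted p = 0.00273) and ADAM17, the main protease that sheds AREG, EREG, HBEGF and TGFA, was lower (log2 -0.22, adjusted p = 0.0282), and without combination replicate 2 FRMD8 kept its call (0.61, adjusted p = 0.0188) and ADAM17 lost it (-0.27, adjusted p = 0.052). In HUCCT1 ADAM10, the main protease for BTC, was lower (log2 -0.42, adjusted p = 0.00473), as was RHBDF2, which encodes iRhom2 (log2 -0.38, adjusted p = 0.00876), and 0 of 7 were higher. Of 12 genes of receptor feedback and turnover, 2 were higher and 2 lower in the EGI-1 combination, among them the ubiquitin ligase genes CBL (log2 0.28, adjusted p = 0.00207) and RNF41 (log2 0.26, adjusted p = 0.0111) and SOCS5 (log2 -0.29, adjusted p = 0.0148). Without combination replicate 2 only CBL of these 12 was called (adjusted p = 0.0246). In HUCCT1 LRIG1, a membrane protein that lowers receptor levels, went from 2.77 to 15.3 mean CPM (log2 2.46, adjusted p = 1.55e-11), while its relatives LRIG3 (log2 -0.47, adjusted p = 0.0234) and LRIG2 (log2 -0.32, adjusted p = 0.0406) were lower.

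Downstream of the receptors, 4 of 25 adaptor and proximal signalling genes were higher and 1 lower in the EGI-1 combination. Of all genes 11.1% were called higher and 7.61% lower there. The largest were the ERK kinase MAP2K1 (log2 0.40, adjusted p = 0.000861), PLCG1 (0.40, adjusted p = 0.000336) and SHC1 (0.34, adjusted p = 0.000617), and the median was -0.01. Without combination replicate 2 the same list gave 4 higher and 0 lower. In HUCCT1 2 of 25 were higher and 2 lower, where 19.6% of all genes were called higher and 13.9% lower, so a smaller share of this list was called. Among the called were the adaptor GAB1 at -0.59 (adjusted p = 0.00189), the kinase SRC at 0.52 (adjusted p = 0.000581) and MAP2K1 at 0.34 (adjusted p = 0.0208). These counts, and those of the lists before, stand beside the shares of all genes called, given above for each comparison.

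Of 15 genes that ERK signalling is known to induce, 6 were higher and 1 lower in the EGI-1 combination. In that comparison 11.1% of all genes were called higher and 7.61% lower. The median log2 fold change was 0.12 beside -0.02 for all genes. DUSP5, an ERK phosphatase, went from 149 to 279 mean CPM (log2 0.91, adjusted p = 3.15e-07), PHLDA1 was lower (log2 -0.56, adjusted p = 2.67e-06) and EPHA4 rose from 0.256 to 1.26 mean CPM (adjusted p = 0.0033). Without combination replicate 2, 4 were higher and 1 lower, and EPHA4 was not called (adjusted p = 0.127). Under talazoparib alone 4 were higher and 1 lower, where 2.83% of all genes were called higher and 1.29% lower. DUSP5 at 0.67 (adjusted p = 7.0e-05) and PHLDA1 at -0.37 (adjusted p = 0.000964) were among them. Under decitabine alone 1 was higher, DUSP6 (log2 0.34, adjusted p = 0.0301), named after its value was seen, where 0.518% of all genes were called higher. DUSP6 was not called in the combination (log2 0.09, adjusted p = 0.408). In HUCCT1 5 were higher and 5 lower, with a median of 0.02, where 19.6% of all genes were called higher and 13.9% lower. DUSP5 was higher there by 1.41 (adjusted p = 1.26e-10) and IER3 by 1.51 (from 0.432 to 1.24 mean CPM, adjusted p = 0.00451), whereas EPHA4 was lower (log2 -1.08, adjusted p = 8.63e-07).

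**Figure D5:**
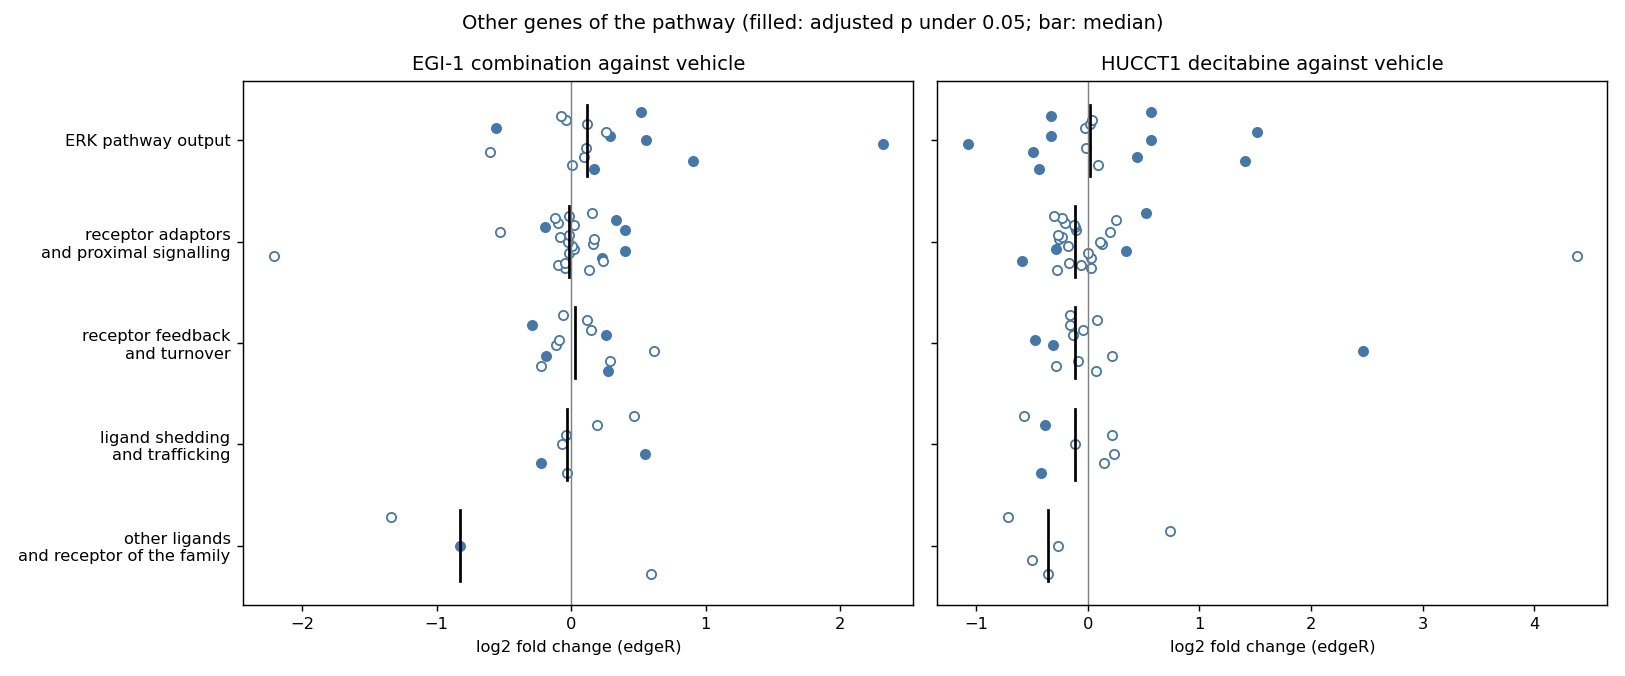
Log2 fold change (horizontal axes) of the other genes of the pathway, by list, in the EGI-1 combination (left) and HUCCT1 decitabine (right), with filled points where the adjusted p was under 0.05 and a bar at each list's median. Most points lie near 0, and the far open point among the adaptors at right is HRAS at 4.38, which did not pass the test (adjusted p = 0.0862).

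The genes whose log2 CPM ran most like that of the leading members over the 8 EGI-1 libraries were ranked among 13680 genes. For EREG these were BUB1 (Pearson r 0.962), GALK2 (0.942), ESF1 (0.942), ATL2 (0.935) and AHCTF1 (0.930). For EGFR they were CCNJL (0.987), ENSG00000235066 (0.947), SART1 (0.942), ZMYND8 (0.942) and PFN1 (0.941). With 8 libraries that share arms and so many genes ranked, these values are a description only.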

How the data were processed

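RNA sequencing of 12 libraries was analysed. The authors deposited raw counts per gene for all of them, without normalization. The processing notes of the submitters name fastp, Trim Galore, HISAT2, featureCounts and GRCh38, whereas the methods of the study name fastp, STAR and RSEM. All values are whole numbers, and the annotation release, the use of strand and the treatment of reads with several matches are not given in the sources used here. Of 60651 genes, 60437 were matched to a GENCODE 44 symbol and length. Total counts lay between 23139065 and 34965627. TMM factors lay between 0.965 and 1.03, and between the 2 libraries of an arm the chi-square per gene was 2.73 to 12.6, above counting noise.

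The test across genes was that of edgeR 4.0.16 under R 4.3.3 (filterByExpr by arm with a minimum count of 10, TMM, robust quasi-likelihood F test, two-sided), with Benjamini-Hochberg adjustment over all genes tested and a call at an adjusted p under 0.05. The 8 EGI-1 libraries were fitted together (22406 genes), the 4 HUCCT1 libraries apart (22479) and all 12 for contrasts between lines (25096). An exact permutation test of 2 against 2 libraries cannot go below a two-sided p of 0.333, so none is given. CPM of the members, and mean CPM of listed genes, use TMM factors within a line, whereas the marker sums and the CPM per library of genes that are no members are scaled by the library total alone. TPM are counts per base of the longest transcript scaled to the same sum in every library. Alternatives were RLE and upper-quartile factors, no filter on low counts, replicate blocks, DESeq2 1.42.0, fits of the compared arms only, exon union lengths and leaving out each library. Leaving out EGI-1 combination replicate 2 for the other gene lists was chosen after seeing the data. The fits were tested on simulated data.

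The members and lists were chosen with earlier results of these data known. The 9 members are named whatever their values. From the other lists, the genes named are those with an adjusted p under 0.05 in the EGI-1 combination or HUCCT1 decitabine, at most the 3 with the largest change for each list and comparison, and any gene of the family list. Neighbours of the chromosome 4 cluster are counted, with examples. Promoter sequences are those of RefSeq (8 of 9 members matched).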

Additional observations from a re-analysis of the deposited data

Results flagged for a closer look

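The response to decitabine differed between the lines, by the interaction test of edgeR over all 12 libraries, for 5 of the 9 members. The difference, HUCCT1 minus EGI-1 on the log2 scale, was 1.13 for HBEGF, -0.80 for EREG, -0.50 for AREG, 0.39 for TGFA and -0.34 for EGFR. For HBEGF and TGFA the EGI-1 decitabine libraries also stood above vehicle. The log2 differences there were 0.27 and 0.12, and neither was called (edgeR adjusted p = 0.224 and 0.511). AREG and EGFR had decitabine libraries above vehicle in EGI-1 and below it in HUCCT1. For AREG these were 81.8 and 95.1 against 72.6 and 77.4 CPM in EGI-1 and 159 and 189 against 200 and 222 CPM in HUCCT1, and it was called in neither line. For EGFR they were 492 and 472 against 470 and 466 CPM in EGI-1, not called, and 1522 and 1390 against 1778 and 1841 CPM in HUCCT1, called lower. The EGFR log2 difference in EGI-1 was 0.04, with a 95% interval of -0.07 to 0.15 that includes 0. The dose differed with the line, and so did the medium and a code in the library names, and their part was not tested.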

How the results depend on the processing

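No member reversed its direction in a comparison where it was called. Every alternative run kept the calls of AREG, HBEGF and TGFA in the EGI-1 combination against vehicle and of TGFA under talazoparib alone. The same was true of HBEGF and TGFA in the combination against decitabine and of HBEGF, TGFA and EREG in HUCCT1. It was also true of HBEGF and EREG in the difference between lines and of EGFR, AREG and TGFA between the vehicle arms. With 2 libraries per arm, leaving out a library leaves an arm with a single library, which is then assumed to vary like the others. Leaving out 1 library at a time moved the number of members called between 0 and 2 for EGI-1 decitabine against vehicle, 1 and 3 for talazoparib against vehicle, 3 and 6 for HUCCT1 decitabine, 3 and 5 for the difference between lines, 3 and 7 for the vehicle arms of the lines, and 3 and 4 for the combination against vehicle or decitabine. Without a filter on low counts 1 member was called for EGI-1 decitabine and 1 for the combination against talazoparib. For the latter, DESeq2 called 2 and the fit of the compared arms called 1, and that fit called 5 in the combination against vehicle. Replicate numbers did not pair the libraries, since the correlation of their deviations lay between -0.07 and 0.06 in EGI-1, and HUCCT1 has a single pair (0.11). A replicate block by label number called 9 of 9 members in HUCCT1, with AREG (-0.28, adjusted p = 0.00014), ERBB2 (-0.19, adjusted p = 0.00912) and ERBB3 (-0.25, adjusted p = 0.000907) as further calls, and took away the HBEGF call between the vehicle arms (0.20, adjusted p = 0.0845), and a block by name series changed no member's call. Over all genes the block by label number moved the calls from 4194 to 3516 in the EGI-1 combination and from 122 to 60 under EGI-1 decitabine, and from 7525 to 10136 in HUCCT1. With upper-quartile factors the median of all genes between the vehicle arms was -0.13, against -0.01 with TMM. Under those factors EPGN was called lower in the combination (-0.97, adjusted p = 0.0427) and EREG (-0.24, adjusted p = 0.0198) and BTC (-0.46, adjusted p = 0.0129) were called lower in HUCCT1 vehicle, while BTC lost its HUCCT1 decitabine call (adjusted p = 0.0518). RLE factors called BTC in the combination (0.39, adjusted p = 0.0452). Depth limits EPGN most, with 17 to 47 counts in EGI-1.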
